A study of Arabidopsis thaliana with 3 samples.

Results

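The 5 H3K27 demethylase genes of Arabidopsis thaliana described here are JMJ13 (AT5G46910), REF6 (AT3G48430), ELF6 (AT5G04240), JMJ30 (AT3G20810) and JMJ32 (AT3G45880). They were chosen by locus identifier, and all 5 were present among 33602 listed transcripts, each with 1 transcript. The samples were 3 Smart-seq2 libraries (a method for small amounts of RNA) of sperm cells sorted by fluorescence from wild-type Col-0 plants, and no treatment or mutant was among them. The sperm values are the authors' means in TPM (the abundance of a transcript, corrected for its length, as a share of the column), so they carry no SD and no difference was tested. Whether these libraries were made from separate plants or sorts is not stated. Tissues other than sperm were not analysed here.

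Trimethylation of lysine 27 on histone H3 (H3K27me3) is a repressive mark written by Polycomb repressive complex 2 (PRC2), which plants use to hold developmental genes silent. Demethylases with a JmjC domain remove it by an iron-dependent oxidation of the methyl groups. REF6 and ELF6 are close relatives with zinc fingers at their carboxyl end, and those of REF6 bind a DNA sequence at its target genes. The title of the study concerns the resetting of this mark in paternal chromatin.

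The column was checked against marker genes. All 7 sperm markers were above 1 TPM, at 71.8 to 11141 TPM. Also present were markers of the pollen tube and of the vegetative cell, which encloses the sperm in a pollen grain. Of these, 5 of 6 reached 1 TPM, and the 6 summed to 331.1 TPM. Of 24 markers of leaf, seed, shoot meristem, root, flower and embryo, 13 were listed at 0 and 2 reached 1 TPM, the embryo genes LEC1 at 3.75 TPM and WOX2 at 4.76 TPM. Over all transcripts, 43.1% were listed at 0 and 21.7% reached 1 TPM, so these 24 markers alone say little about other tissues.

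JMJ13, known for delaying flowering, had the highest level of the 5 demethylase genes in sperm, at 147 TPM. It ranked 532 from the top among all listed transcripts, so that 1.58% stood at or above it. At or above 100 TPM stood 2.29% of all transcripts and 1 of the 5 genes, JMJ13. Its level was above 3 of the 7 sperm markers, namely the germline transcription factor DUO1 at 82.3 TPM, the gamete fusion gene HAP2 at 87.9 TPM and GEX2, a sperm membrane protein, at 71.8 TPM. It lay far below the sperm histone gene HTR10 at 4750 TPM. All 6 vegetative cell markers lay below JMJ13, the highest being the arabinogalactan protein gene AGP6 at 127.3 TPM, and the part of vegetative cell RNA in the JMJ13 value was not tested.

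REF6 and ELF6 were present at lower levels. REF6 stood at 8.39 TPM with 10.3% of transcripts at or above it, and ELF6, known for reactivating the flowering repressor FLC in the embryo, at 3.96 TPM with 13.9% at or above it. The REF6 level was 2.12-fold that of ELF6. JMJ13 exceeded REF6 by 17.5-fold, a difference of 3.98 on the log2(TPM + 1) scale, and exceeded ELF6 by 37.1-fold, a difference of 4.90 on that scale. REF6 and ELF6 together summed to 12.4 TPM. Both lay below the vegetative cell and pollen tube markers AGP6 at 127.3, AGP11 at 83.0, VGD1 at 78.9 and RALF19 at 38.3 TPM. They lay above the markers ACA9 at 3.55 and VEX1 at 0.035 TPM. The part of vegetative cell RNA in the REF6 and ELF6 values was not tested.

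JMJ30 and JMJ32, which act on FLC at elevated temperature, were at the bottom of the set. JMJ30, also known as a gene of the circadian clock, was at 0.072 TPM and JMJ32 at 0.058 TPM, 0.130 TPM together. Each was above 0, and 43.1% of all transcripts were listed at 0. Listed values above 0 went down to 1.46e-10 TPM, so a value above 0 does not by itself show detection. In all, 3 of the 5 genes were at or above 1 TPM, against 21.7% of all transcripts. JMJ13 made up 92.2% of the summed level of the 5 genes (159.6 TPM), REF6 5.26%, ELF6 2.48%, JMJ30 0.045% and JMJ32 0.036%. The order JMJ13, REF6, ELF6, JMJ30, JMJ32 is that of the means, and whether the neighbours REF6 and ELF6, or JMJ30 and JMJ32, differ beyond the spread between libraries cannot be said.

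**Figure D1:**
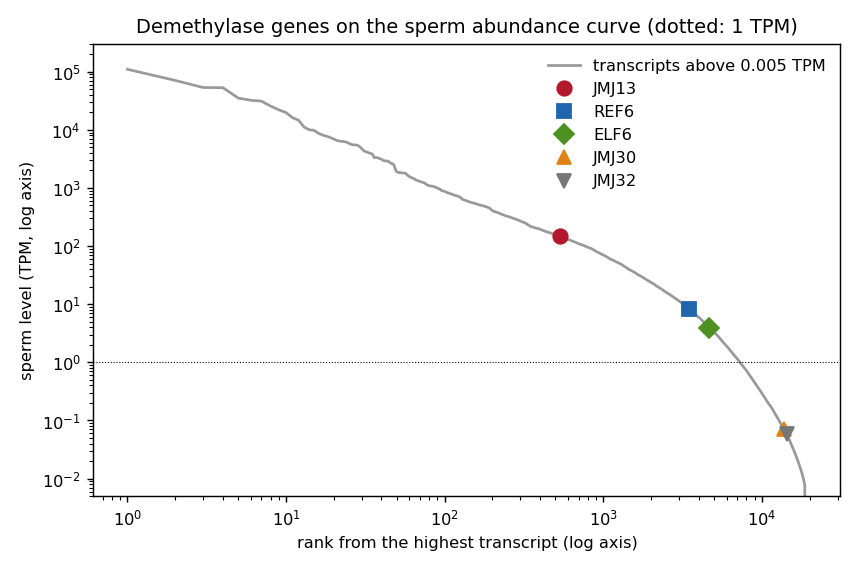
Sperm level of each transcript (authors' mean TPM, log axis) against its rank from the highest (log axis), drawn as a grey line down to 0.005 TPM, with the 5 demethylase genes as symbols. JMJ13 lies at 147 TPM, REF6 and ELF6 at 8.39 and 3.96 TPM, and JMJ30 and JMJ32 below the dotted line at 1 TPM.

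Although single libraries are not given, a mean of 3 values that cannot be negative sets limits on them. The highest library is at least the mean and at most 3 times the mean. For JMJ13 at least 1 library was therefore at or above 147 TPM. No REF6 library can have exceeded 25.2 TPM and no ELF6 library 11.9 TPM, so at least 1 library held JMJ13 far above any value that REF6 or ELF6 can have had. No library can have exceeded 0.216 TPM for the listed transcript of JMJ30 (isoform 2) or 0.173 TPM for that of JMJ32. Both listed transcripts were thus below 1 TPM in every library, though reads of other isoforms may be missed. The same limit places at least 71.1% of all transcripts below 1 TPM in every library. The limits of REF6 and ELF6 overlap, as do those of JMJ30 and JMJ32.

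The digits of the means gave a further, partial view. A library written with 6 significant digits leaves more decimals in the mean the lower its value. The JMJ13 mean held no digit that a library below 100 TPM would leave. That was the common case, as only 10.3% of the 497 means from 100 to 300 TPM held one. If no JMJ13 library was below 100 TPM, none exceeded 241.5 TPM. The REF6 and ELF6 means held no digit of a library below 1 TPM, again the common case. Only 12.9% of the 4089 means from 1 to 10 TPM held one. That at least 1 library of each gene was below 10 TPM follows from the means alone. If none was below 1 TPM, none exceeded 23.2 TPM for REF6 or 9.89 TPM for ELF6. A library at 0, or last digits that add up to 0, would go unseen. In simulated means of 3 libraries with an assumed spread, the lowest library was placed in its true range in 90.0% of cases. In the rest it was placed too high, through last digits lost in the sum. No simulated library was at 0, so that case was not covered. The 90.0% is therefore no measure of certainty for these genes.

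**Figure D2:**
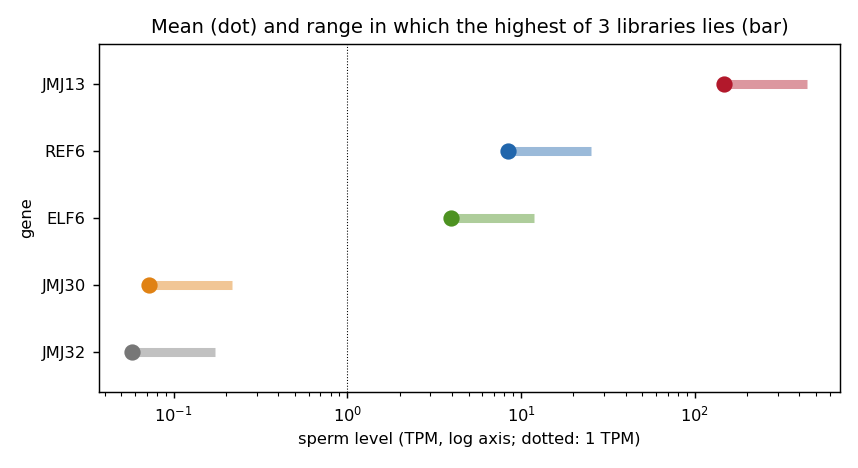
Mean sperm level of each demethylase gene (dot, TPM on a log axis) and the range in which its highest of 3 libraries must lie (bar, from the mean to 3 times the mean). The JMJ13 bar, from 147 to 441.5 TPM, lies above the others, and those of JMJ30 and JMJ32 end below the dotted line at 1 TPM.

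JMJ13 was also among the highest of all JmjC genes. Of 21 such genes, JMJ13 ranked 2, below only JMJ18 at 155.6 TPM, a KDM5-type demethylase of methylated lysine 4 on histone H3 (H3K4). The JMJ13 level was 0.946-fold that of JMJ18, and their order cannot be told from means. JMJ24, of the KDM3 type related to the H3K9 demethylase IBM1, was next at 31.1 TPM, and JMJ13 exceeded it by 4.74-fold. JMJ18 and JMJ13 held 42.7% and 40.3% of the family's summed level. REF6 ranked 4, ELF6 ranked 7, JMJ30 ranked 17 and JMJ32 ranked 19. For the other JmjC genes too, the part of vegetative cell RNA in the values was not tested.

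The 16 other JmjC genes had a median of 0.891 TPM, and 7 of them were at or above 1 TPM, against 21.7% of all transcripts, whose median was 0.0209 TPM. At 5 TPM the count was 2 of 16, near the 12.7% of all transcripts that reached that level. Of the KDM5 type, 3 of 6 passed, with JMJ14, an H3K4 demethylase that delays flowering, at 3.73 TPM and JMJ15 at 1.38 TPM after JMJ18. JMJ17 at 0.289 TPM and JMJ16 at 0.081 TPM were the lowest of that type. Of the KDM3 type, 3 of 6 passed, with JMJ28 at 4.16 TPM and IBM1, which keeps H3K9 methylation out of genes, at 1.02 TPM after JMJ24. The lowest of that type were JMJ27 at 0.794 TPM and JMJ29 at 0.068 TPM. JMJ24 and IBM1 are each listed as isoform 3, so reads of their other isoforms may be missed. Of the 4 genes of the JMJD6 type or with a JmjC domain only, JMJ21 passed at 4.68 TPM, while JMJ20 and JMJ22 were listed at 0. None of the 4 LSD1-type genes, which demethylate by another chemistry, reached 1 TPM. LDL3 was their highest at 0.503 TPM, and FLD, an activator of flowering that represses FLC, and LDL1 were listed at 0.

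The genes that write the mark were compared on the same scale. The 3 catalytic subunits of PRC2 were all below 0.1 TPM, as were 61.8% of all transcripts. CLF was at 0.065 TPM and SWN at 0.0099 TPM. MEA, which acts in the female gametophyte and endosperm, was at 0.0083 TPM. The 3 genes summed to 0.083 TPM, whereas JMJ13, REF6 and ELF6 summed to 159.5 TPM, of which JMJ13 alone was 147 TPM. These sums are of transcripts and give no level of protein or enzyme activity. By the same limit, the 3 catalytic genes together cannot have exceeded 0.250 TPM in any library. Of the other PRC2 subunits, VRN2, the subunit of the cold response, was at 6.46 TPM, the histone-binding protein gene MSI1 at 6.43 TPM and FIE, the WD40 subunit, at 1.03 TPM. EMF2 at 0.014 TPM and FIS2 at 0.0065 TPM, the other relatives of VRN2, were lower. The part of vegetative cell RNA in the PRC2 values was not tested. In all, 3 of 8 PRC2 genes were at or above 1 TPM, against 21.7% of all transcripts. Their median was 0.039 TPM, above that of all transcripts.

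**Figure D3:**
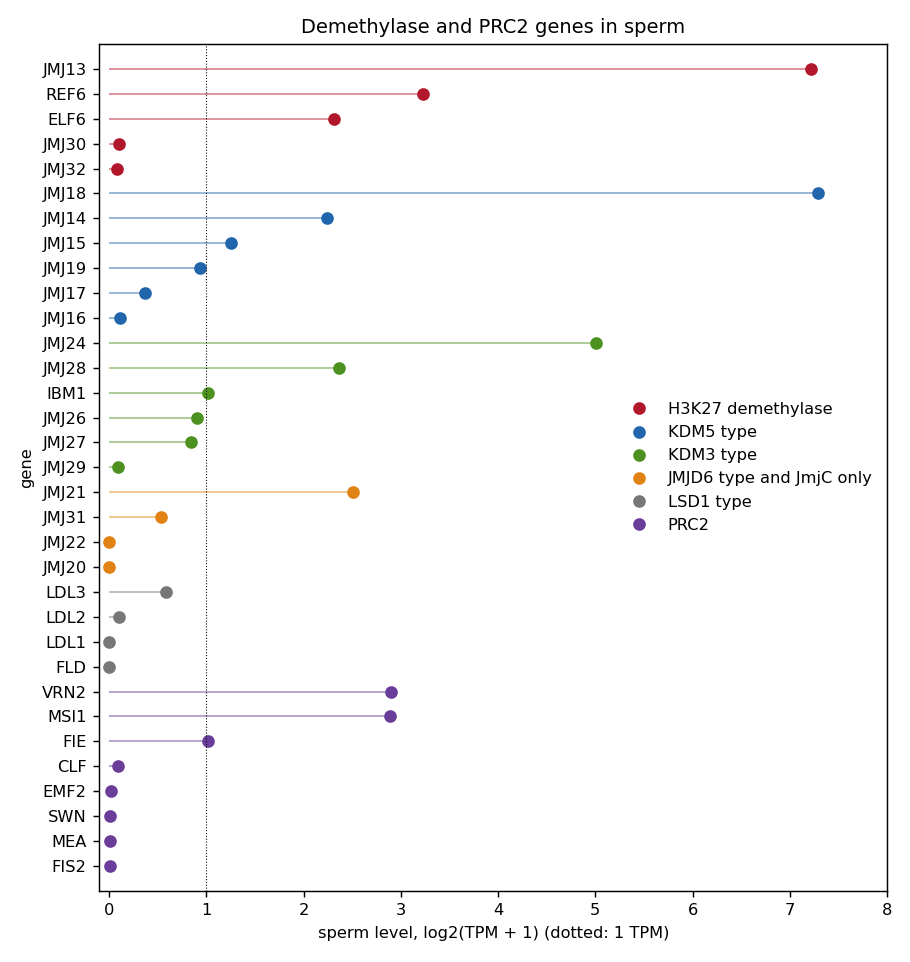
Sperm level on the log2(TPM + 1) scale for the H3K27 demethylase, other JmjC, LSD1-type and PRC2 genes, 1 dot per gene, coloured by type and ordered by level within each type. JMJ18 and JMJ13 stand above the other genes, and the PRC2 catalytic genes CLF, SWN and MEA lie near 0.

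Of 9 partners and reported targets of the demethylases, 2 reached 1 TPM, whereas 5 had a listed value of 0. Over all transcripts 21.7% were at or above 1 TPM and 43.1% listed at 0, so these counts lie near the share of all transcripts. BRM, the chromatin remodelling ATPase that works with REF6, was at 8.93 TPM, close to REF6 itself at 8.39 TPM. The ELF6 and REF6 partner BES1, a brassinosteroid transcription factor, and the flowering factor NF-YC9 were listed at 0. Their listed transcripts are isoform 3 for BES1 and isoform 4 for NF-YC9, so reads of other isoforms may be missed. BRM is listed as isoform 2, with the same limit. Of the reported targets, FLC was at 13.6 TPM. The part of vegetative cell RNA in the BRM and FLC values was not tested. The flowering activators FT and SOC1 and the organ boundary gene CUC1 were listed at 0. The ethylene signalling gene EIN2 was at 0.0092 TPM and the chlorophyll breakdown gene NYE1 at 0.206 TPM.

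The nearest listed genes on the chromosome had other levels than the demethylase genes. How often neighbours differ in this way over all transcripts was not examined. Beside JMJ13 at 147 TPM, AT5G46900 was listed at 0 and AT5G46915 was at 0.349 TPM. JMJ30 at 0.072 TPM lay between AT3G20800 at 415.1 TPM and AT3G20820, listed at 0. REF6 at 8.39 TPM lay between AT3G48425 at 1.01 TPM and AT3G48440 at 276.3 TPM. ELF6 at 3.96 TPM had neighbours at 0.092 TPM (AT5G04235) and 0.973 TPM (AT5G04238). JMJ32 at 0.058 TPM lay between UMAMIT3 at 0.716 TPM and RUS1 at 4.79 TPM.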

How the data were processed

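Sperm RNA was sequenced with Smart-seq2 after cell sorting, per the labels' protocols. The deposited table holds TPM values made by the authors. Per the submitters' processing notes, the tools included kallisto 0.43.1, STAR 2.5.2a, Trim Galore 0.4.1, bedtools and SAMtools, and the build was TAIR10, and no role or order is stated. The annotation is not known here. Each locus has 1 listed transcript (isoform 2 for JMJ30, isoform 1 for the other members), so reads of other isoforms may be lost or reassigned. TPM keeps no counts, so depth is unknown.

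A further 13 value columns, of samples not described here, were not used, and the comparisons planned with them were not made. Of the sperm values from 10 to 100 TPM, 91.8% were whole multiples of the last digit after multiplication by 3, within 0.03 of a step, against 30.5% to 30.9% for 1, 2 or 4, as means of 3 libraries give. The limits on single libraries and the reading of digits were added after the values were seen. The reading of digits was tested only on simulated data with an assumed spread and no library without the transcript.

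Members and lists were chosen with earlier results of these data known. Named were all members, the 5 highest at or above 1 TPM and the 2 lowest of each list, or all tied at 0, and genes in ratios. Neighbours, markers and the rest were named after their values were seen. Names of the members and of the 37 other JmjC, LSD1-type, PRC2, partner and target genes were checked in a RefSeq table of assembly TAIR10.1. It names 4 of the 5 members (JMJ13 by locus only) and lacks the names of 10 of those 37 genes. Names of the marker genes were not checked in this way. Python 3.11.15, pandas 2.3.3, NumPy 2.4.6 and matplotlib 3.10.9 were used.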

Additional observations from a re-analysis of the deposited data

How the results depend on the processing

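Alternatives were a pseudocount of 0.1 TPM, thresholds of 5 and 0.1 TPM, and rescaling without the 10 highest or without the organellar transcripts, which multiplies every remaining level by 1.83 or 1.003. The log2 difference between JMJ13 and REF6, 3.98, stayed between 3.98 and 4.12, and the share of JMJ13 cannot move under rescaling. At 5 TPM, 2 of the 5 genes passed in place of 3, against 12.7% of all transcripts. At 0.1 TPM 3 of the 5 passed, against 38.2% of all transcripts and 75.0% of the other JmjC genes. Also 3 passed at 1 TPM without the 10 highest transcripts (25.5% of all) and without the organellar ones (21.7%). Of the 16 other JmjC genes, 7 were at or above 1 TPM (21.7% of all transcripts were), 2 at 5 TPM (12.7%), 12 at 0.1 TPM (38.2%) and 10 at 1 TPM without the 10 highest transcripts (25.5%), counts added after seeing the data. The share of these genes, 43.8% at 1 TPM, was 12.5% at 5 TPM, no higher than that of all transcripts. Alternatives that set sperm against other columns were not run, nor was leaving out single libraries, because the column holds means. No paired analysis was possible because there is 1 group of samples. Counting error and the spread between libraries are not known.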
